A study of Mus musculus with 10 samples.

Results

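The melanin pathway genes examined here are Tyr, Tyrp1, Dct, Pmel, Mlana, Oca2 and Mitf, taken by gene symbol. The list was chosen with earlier results of these data known. A probe carrying 1 of these symbols in the array's annotation was found for 6 of the 7 genes, among 13840 named genes, and these 6 genes had 7 probes of the 33012 on the array. Mlana was not analysed here. Transcripts of Dct and Tyrp1 were higher in adult retina than in newborn cortex, by 5.21 and 4.23 log2 units. The Tyrp1 value is from the brighter of its 2 probes, and the other was higher by 2.42. Pmel was higher by 2.14. Cortex signal was not shown to exceed background for any of these probes. For Pmel and the second Tyrp1 probe, mean retina signal was not shown to exceed it either. Tyr, Oca2 and Mitf were dim on average in both tissues and were not called different.

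The values come from Applied Biosystems single-channel arrays read by chemiluminescence, 5 hybridised with RNA of adult mouse retina and 5 with RNA of postnatal day 1 (P1) mouse cortex, in a comparison of array platforms. The retina RNA was 1 pool from 350 C57/B6 mice, and the cortex RNA was 1 pool from 19 mice. The sample labels give the cortex mice as C57/B6 but the text on the series names Swiss-Webster, an albino stock, so the coat colour of these animals is not settled. No genotype, transgene or treatment is given for either group, and the age of the adults is not given in days. The 5 arrays of a tissue repeated the same pool, so p-values measure the spread between arrays and not between animals, and tissue, age and possibly strain cannot be told apart.

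Melanin is made in the melanosome, an organelle related to the lysosome. In the eye it is found in the retinal pigment epithelium behind the photoreceptors, in the iris and ciliary body, and in melanocytes of the choroid. Tyrosinase, encoded by Tyr, oxidises tyrosine in the limiting step, and the related enzymes encoded by Tyrp1 and Dct act on later intermediates of the brown and black pigment. Pmel forms the fibrils on which pigment is laid down, Oca2 is a melanosome membrane protein that raises the pH inside, and the transcription factor Mitf activates the enzyme genes. Neural retina and cortex are not pigmented.

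Median intensity as deposited was 836 to 987 on the retina arrays and 1255 to 1341 on the cortex arrays, and quantile normalization of the log2 values removed that difference. All 4 measured rod marker genes were higher in retina and both measured cortical neuron genes (Tbr1 and Neurod6) were lower. No detection calls came with the values. Probes named for olfactory receptors (747 probes) served as a yardstick for dim signal, and the 95th percentile of their tissue means was 10.74 on the log2 scale. These genes were taken as largely silent in both tissues, which was not tested. A probe was called different when limma's Benjamini-Hochberg adjusted p over all 33012 probes was under 0.05 and the difference at least 2-fold. Each difference given is the retina mean less the cortex mean, in log2 units. Where 1 tissue's mean lay under the yardstick, the difference was taken against signal not shown to exceed background, and its exact size is uncertain.

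Dct encodes dopachrome tautomerase. Its probe (419272) read 14.31, 14.19, 14.14, 14.21 and 14.08 on retina arrays 1 to 5 and 10.60, 7.75, 9.21, 8.15 and 9.18 on cortex arrays 1 to 5. Every retina array lay above every cortex array, and the spread was far wider in cortex, where array 1 was highest. The deposited intensity ranged from 15579 to 18038 on the retina arrays and from 234 to 1923 on the cortex arrays. The retina mean of 14.19 ± 0.09 and the cortex mean of 8.98 ± 1.11 (SD, n = 5) differed by 5.21 (SE 0.37, limma adjusted p = 2.13e-09). The cortex values all lay under the yardstick of 10.74, so the size of this difference depends on signal not shown to exceed background. Measured from the yardstick instead, the retina mean was 3.45 log2 units, or 10.9-fold, higher.

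Tyrp1, which encodes a melanosomal enzyme that stabilises tyrosinase and is the gene of the mouse brown locus, had 2 probes. The brighter probe (770167) read 12.31, 12.62, 12.36, 12.40 and 12.39 on retina arrays 1 to 5 and 8.25, 8.64, 8.39, 8.05 and 7.60 on cortex arrays 1 to 5. The 2 sets of values did not overlap, and the retina arrays lay close together. Their means of 12.42 ± 0.12 and 8.19 ± 0.39 (SD, n = 5) differed by 4.23 (SE 0.22, limma adjusted p = 3.21e-11), and the retina mean was 1.68 log2 units, or 3.2-fold, over the yardstick, while all 5 cortex values were under it. The second probe (892839) read 9.80, 10.91, 10.81, 10.65 and 10.81 in retina and 7.32, 8.68, 7.86, 8.26 and 8.74 in cortex. It too separated the tissues, with retina array 1 below the other retina arrays, and its difference was 2.42 (SE 0.34, limma adjusted p = 1.16e-05). Its retina mean, 10.59 ± 0.46, lay under the yardstick. Both probes were called in the same direction, and both were under the yardstick on every cortex array.

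Tyr was not called different on this array. Its probe (358289) read 8.44, 10.09, 8.28, 7.70 and 7.92 on retina arrays 1 to 5 and 8.18, 8.11, 7.92, 8.09 and 7.68 on cortex arrays 1 to 5. The tissues overlapped, and retina array 2 stood above all other arrays. The retina arrays averaged 8.49 ± 0.94, the SD in cortex was 0.20 (n = 5 each), and the means differed by 0.49 (SE 0.41, limma adjusted p = 0.371) with a 95% interval of -0.38 to 1.35. Without retina array 2 the difference was 0.09. The retina mean stood at the 61.9th percentile of the olfactory receptor values and the cortex mean at the 32.5th, so on this probe Tyr transcript was not detectable above that background in either tissue, and no absence of transcript can be read from it.

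**Figure D1:**
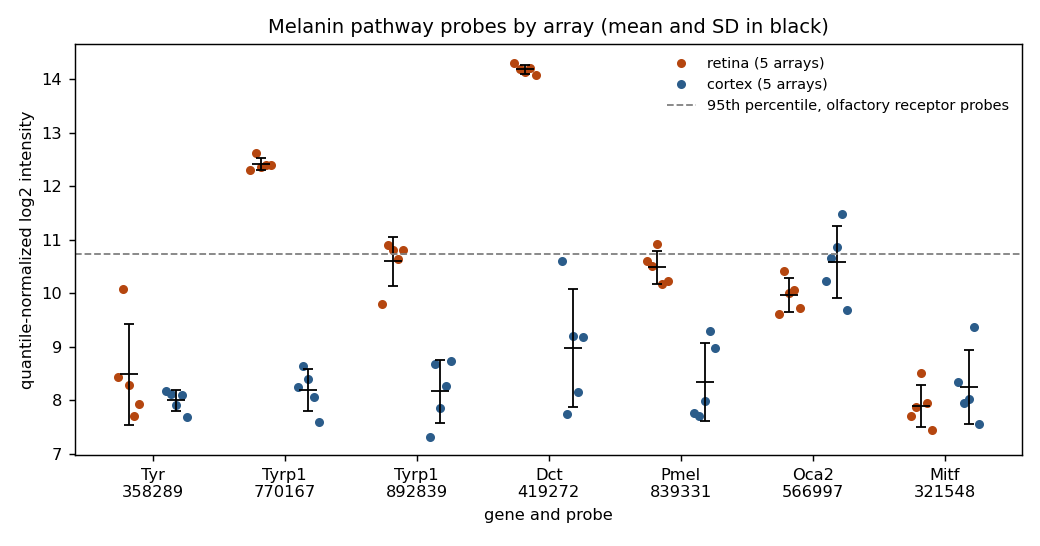
Quantile-normalized log2 intensity (vertical axis) of each melanin pathway probe on the 5 retina and 5 cortex arrays, with the mean and SD in black and the 95th percentile of olfactory receptor probes, 10.74, as a dashed line. Dct and the brighter Tyrp1 probe lie above the line on all 5 retina arrays, and Tyr and Mitf lie below it on all 10.

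Pmel encodes the fibril protein of the early melanosome. Its probe (839331) read 10.61, 10.51, 10.92, 10.17 and 10.22 on retina arrays 1 to 5 and 7.77, 7.70, 7.98, 9.29 and 8.97 on cortex arrays 1 to 5. All retina values were above all cortex values, and cortex arrays 4 and 5 were higher than the other 3. Their means of 10.48 ± 0.31 and 8.34 ± 0.73 (SD, n = 5) differed by 2.14 (SE 0.35, limma adjusted p = 6.08e-05). Both means were under the yardstick, and only 1 retina array exceeded it.

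Oca2, the gene of the mouse pink-eyed dilution locus, was not called different. Its probe (566997) read 9.61, 10.42, 10.004, 10.07 and 9.73 on retina arrays 1 to 5 and 10.24, 10.66, 10.87, 11.48 and 9.68 on cortex arrays 1 to 5. The tissues overlapped, with cortex arrays 1 and 5 within the range of the retina values and 2 cortex arrays over the yardstick. The difference was -0.62 (SE 0.30, limma adjusted p = 0.104) with a 95% interval of -1.25 to 0.01. Without normalization between arrays it was -1.14 and was called lower (limma adjusted p = 0.00251), in a setting where the median of all probes was itself at -0.41.

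Mitf was dim throughout. Its probe (321548) read 7.71, 7.88, 8.52, 7.94 and 7.45 on retina arrays 1 to 5 and 8.35, 7.95, 8.03, 9.36 and 7.55 on cortex arrays 1 to 5. The tissues overlapped, and cortex array 4 was the highest. The difference was -0.35 (SE 0.36, limma adjusted p = 0.481) with a 95% interval of -1.12 to 0.42, and the retina mean stood at the 26.4th percentile of the olfactory receptor values. Mitf has several promoters and transcript forms, and which of them the probe reads was not tested here.

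In all, 4 of the 7 member probes were called higher in retina and 0 lower, where 12.1% of all probes were called higher and 25.4% were called in either direction. The same 4 were the ones whose retina arrays all lay above the cortex arrays, a pattern seen in 19.2% of all probes. The median difference was 2.14 over the 7 member probes and -0.01 over all probes. Both Tyrp1 probes are among the 4 called. By gene, with the brightest probe for each, 3 of the 6 were called higher, against 14.2% of all named genes. The median difference was 1.31 over the 6 genes and 0.002 over all named genes. In the mean of the 5 retina arrays 2 of the 7 probes, those of Dct and the brighter probe of Tyrp1, were over the yardstick, and in cortex 0 were. The RNA is from whole tissue, so fewer cells of a type and less RNA per cell cannot be told apart.

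**Figure D2:**
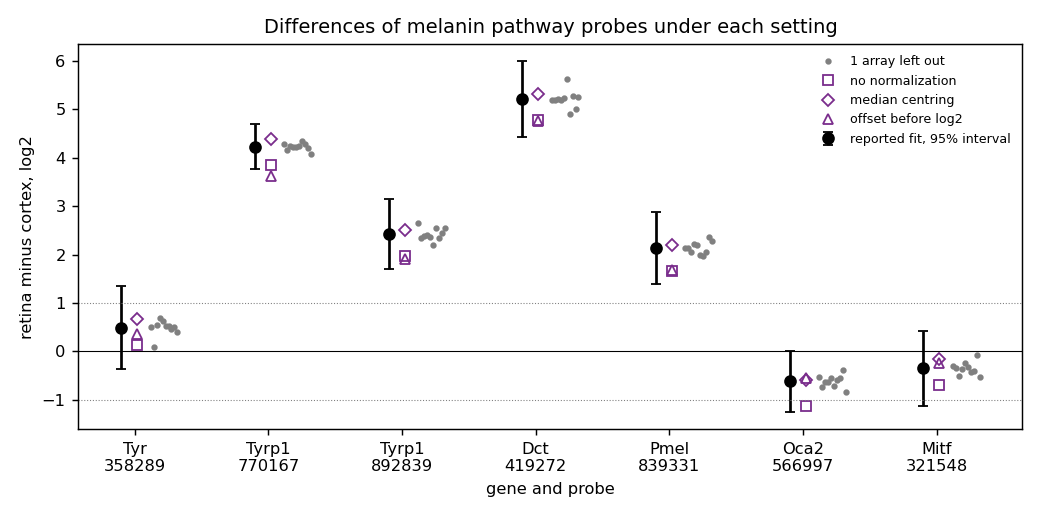
Retina minus cortex difference in log2 intensity (vertical axis) for each melanin pathway probe, with the reported fit and its 95% interval in black, other scalings as open symbols and fits with 1 array left out as grey points. Dotted lines mark a 2-fold difference. Dct, both Tyrp1 probes and Pmel stay above the upper line in every setting drawn, and Oca2 passes the lower line without normalization, at -1.14.

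Dct, Tyrp1 and Tyr are textbook targets of Mitf, which binds an E-box with the letters CATGTG. The promoters of these 3 genes are shown because all 3 hold this element while only 2 of the genes were called: the 250 bases before the RefSeq start site (GRCm38.p6), 5′ to 3′ on the strand of the gene, with CATGTG, or CACATG where it lies on the opposite strand, in capitals. The windows are chr7:87493513-87493762 on the minus strand for Tyr, chr4:80833963-80834212 on the plus strand for Tyrp1 and chr14:118052247-118052496 on the minus strand for Dct.
Tyr: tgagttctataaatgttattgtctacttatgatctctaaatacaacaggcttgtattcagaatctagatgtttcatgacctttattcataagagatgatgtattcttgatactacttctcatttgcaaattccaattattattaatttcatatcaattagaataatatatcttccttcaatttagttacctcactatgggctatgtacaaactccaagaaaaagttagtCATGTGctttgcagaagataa
Tyrp1: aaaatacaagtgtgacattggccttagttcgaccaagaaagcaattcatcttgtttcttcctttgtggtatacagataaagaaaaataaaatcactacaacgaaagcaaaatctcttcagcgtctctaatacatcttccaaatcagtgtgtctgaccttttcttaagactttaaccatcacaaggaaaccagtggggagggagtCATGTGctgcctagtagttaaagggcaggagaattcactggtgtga
Dct: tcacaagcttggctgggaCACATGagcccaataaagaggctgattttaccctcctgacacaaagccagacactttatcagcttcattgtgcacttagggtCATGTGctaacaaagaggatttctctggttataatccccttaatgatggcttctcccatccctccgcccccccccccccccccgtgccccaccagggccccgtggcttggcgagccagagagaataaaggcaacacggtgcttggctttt

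RefSeq windows of 300 bases, 250 before the start site and 50 after it, were matched for 5 of the 7 members, in 7 windows because Mitf has 3. CATGTG, searched on both strands, was found in the windows of Tyr, Tyrp1, Dct and Oca2, and in 14.2% of all 32851 windows. CACGTG, which reads the same on both strands, was in 0 of the 7 windows and in 7.15% of all. The match nearest the start site lay at -21 to -16 in Tyr, -46 to -41 in Tyrp1, -150 to -145 in Dct and, on the opposite strand, -186 to -181 in Oca2. The surrounding bases, with the 6 bases in capitals, began and ended differently, but GT preceded and CT followed the 6 bases in each of the 3 enzyme genes. Oca2 is given as read on the strand that holds CATGTG.
Tyr: ttagtCATGTGctttg
Tyrp1: ggagtCATGTGctgcc
Dct: agggtCATGTGctaac
Oca2: ccagcCATGTGtagca

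The 8 letters GTCATGTG, chosen after these sequences were seen, were in the windows of Tyr, Tyrp1 and Dct and in 1.06% of all windows. The Dct window held a second CATGTG on the opposite strand, at -232 to -227, without the 2 added letters. The Tyr window held the same 8 letters as those of Dct and Tyrp1. The Tyr probe was not called, and its mean was under the yardstick in both tissues. Whether these letters bear on the calls was not tested. A match describes letters and not a bound site, and Mitf's own 3 windows held neither motif.

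**Figure D3:**
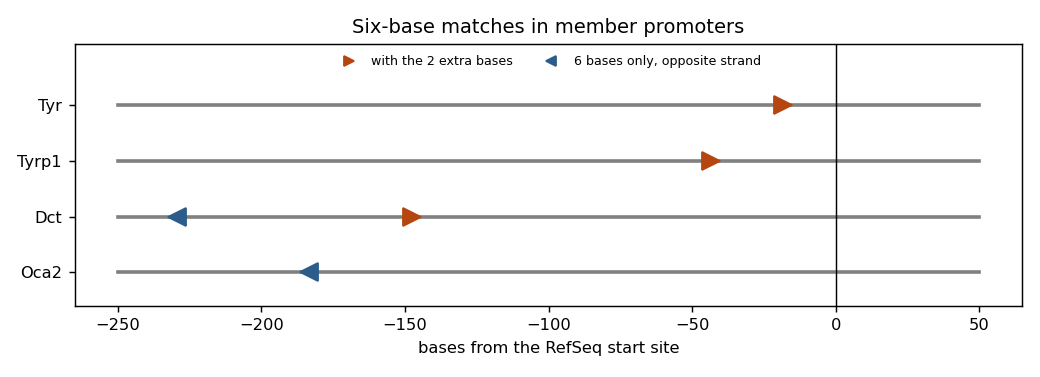
Positions of CATGTG (horizontal axis, bases from the RefSeq start site) in the 300-base windows of 4 members; arrows point right for a match on the gene's strand and left for the opposite strand, and orange marks the 3 matches preceded by GT. The orange match lies closest to the start site in Tyr, at -21 to -16, and farthest in Dct, at -150 to -145.

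The other genes of pigment formation were read from 7 lists with 72 genes, of which 62 had a probe with 1 symbol; the brightest probe stood for a gene. Of these 62, 9 were called higher in retina (14.5%) and 11 lower (17.7%), which left 42 without a call. Their median difference was 0.12. Over all 13840 named genes 14.2% were called higher and 14.7% lower, so these shares were near the background. Without normalization between arrays the 62 genes split into 6 higher and 15 lower. Of the 62 genes, 18 lay under the yardstick in both tissues.

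Genes of the melanosome membrane were called higher in 2 of 7 and lower in 0, with a median of 0.37. Gpnmb, a relative of Pmel, averaged 11.64 ± 0.12 over the retina arrays and 9.76 ± 0.55 over the cortex arrays (SD, n = 5) and differed by 1.88 (SE 0.23, limma adjusted p = 2.44e-06). Slc24a5, a cation exchanger of the pigment organelle, was higher by 1.45 (SE 0.28, limma adjusted p = 0.000312), but by 0.94 and not called without normalization. Both retina and cortex means of Slc24a5 were under the yardstick. Slc45a2, whose loss causes albinism, was at 0.05 (SE 0.39) and Gpr143, the ocular albinism gene, at -0.02 (SE 0.31), both dim in both tissues.

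Melanosome assembly needs sorting complexes that most cells also use for lysosome-related organelles (HPS, BLOC and AP-3). Of 20 measured genes, 2 were higher, 4 lower and 14 not called, with a median of 0.16. Rab38, a small GTPase that carries tyrosinase and Tyrp1 to the melanosome, was higher by 2.31 (SE 0.36, limma adjusted p = 3.3e-05) from means of 10.09 and 7.77, both under the yardstick. Its relative Rab32 was lower, averaging 8.96 ± 0.77 on the retina arrays and 10.39 ± 0.20 on the cortex arrays (SD, n = 5), and differed by -1.43 (SE 0.34, limma adjusted p = 0.00184), again with both means under the yardstick. Hps6, of the BLOC-2 complex, was higher by 1.17 (SE 0.19), although by 0.67 and not called without normalization. Bloc1s6 (-1.36, SE 0.077), Hps1 (-1.21, SE 0.20) and the AP-3 subunit gene Ap3s1 (-1.20, SE 0.078) were lower. Among those not called, Ap3d1, the gene of the mouse mocha mutant, averaged 17.59 in retina and 17.27 in cortex, under a 2-fold difference.

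Of 7 genes that move melanosomes, 2 were higher and 5 not called, with a median of 0.26. Myrip, which links Rab27a to the motor myosin VIIa in the pigment epithelium, averaged 11.92 ± 0.19 over the retina arrays and 9.39 ± 0.43 over the cortex arrays (SD, n = 5) and differed by 2.53 (SE 0.21, limma adjusted p = 1.91e-08). Rab27a was higher by 1.15 (SE 0.32, limma adjusted p = 0.00607) from signal under the yardstick in both tissues, and lost its call in 4 of 16 alternatives, among them leaving out retina array 1. The motor genes Myo7a (0.01, SE 0.075) and Myo5a (-0.10, SE 0.073) were not called, and both were well over the yardstick in both tissues.

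Signals that guide melanocytes were lower or not called. Of 11 genes, 0 were higher, 5 lower and 6 not called, with a median of -0.86. Over all named genes, 14.7% were called lower. The endothelin receptor gene Ednrb averaged 10.32 ± 0.32 over the retina arrays and 13.63 ± 0.16 over the cortex arrays (SD, n = 5) and differed by -3.31 (SE 0.14, limma adjusted p = 2.43e-12). The receptor tyrosine kinase gene Kit (-3.08, SE 0.086), its ligand gene Kitl (-3.12, SE 0.23), Met (-2.93, SE 0.37) and Pomc (-2.35, SE 0.35), the precursor of melanocortins, were lower as well. These 5 genes also act in cells of the brain, such as glia and neurons. Their cortex means were over the yardstick. Their retina means were all under it, so the sizes of these differences are uncertain. Mc1r, the melanocortin receptor of melanocytes, was at 0.96 (SE 0.46) and Asip, its antagonist encoded at the agouti locus, at -0.86 (SE 0.32), both under the yardstick in both tissues and not called.

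Transcription regulators were divided, with 2 of 10 higher, 2 lower and 6 not called, and a median of -0.42. Otx2, which acts with Mitf in the pigment epithelium and is also a photoreceptor and bipolar cell gene, averaged 18.22 ± 0.08 over the retina arrays and 13.02 ± 0.21 over the cortex arrays (SD, n = 5) and differed by 5.20 (SE 0.081, limma adjusted p = 8.25e-18). Pax6, also a gene of amacrine cells, was higher by 4.33 (SE 0.09), and Lef1 (-3.68, SE 0.38) and Zeb2 (-1.86, SE 0.064) were lower. The Mitf relatives Tfeb, Tfe3 and Tfec were at 0.08, -0.02 and -0.30, and none was called. The Tfec probe averaged 17.40 in retina and 17.70 in cortex, far brighter than those of Tfeb (11.51 and 11.43) and Tfe3 (11.45 and 11.47). Whether that probe reads only Tfec was not tested. Of 8 other genes known as Mitf targets, 3 were higher and 0 lower, with a median of 0.49. They were Tbx2 (4.13, SE 0.34, limma adjusted p = 1.3e-08), which also patterns the dorsal retina, and Gpnmb and Rab27a, described above.

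**Figure D4:**
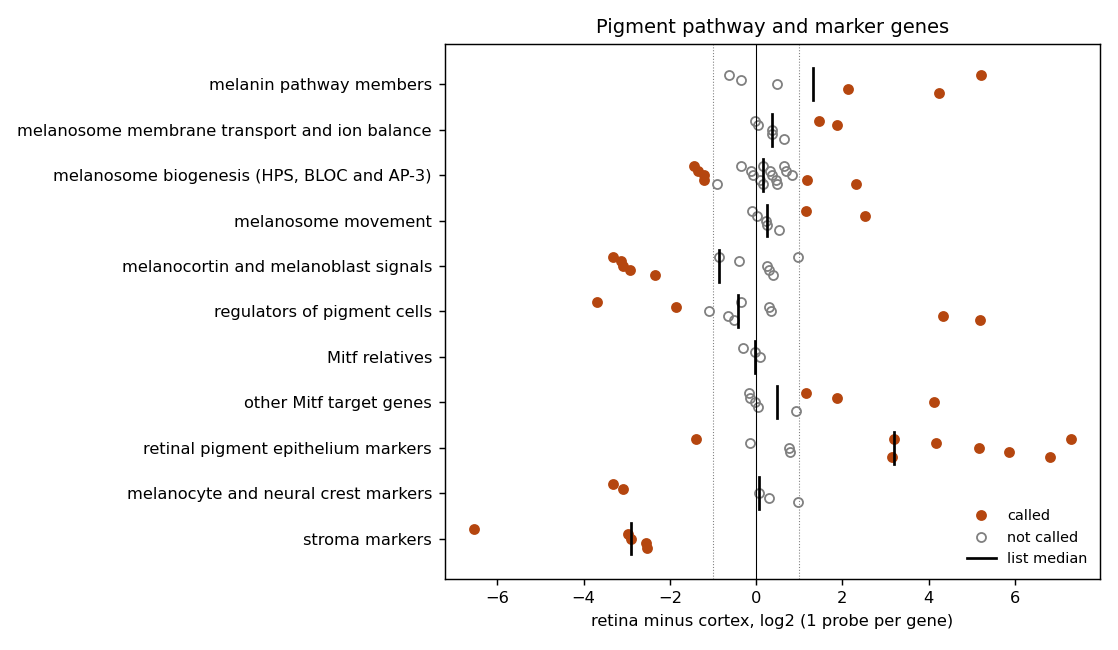
Retina minus cortex difference in log2 intensity (horizontal axis) for each gene of the pigment lists and of 3 marker lists, 1 probe per gene, with called genes filled, the others open, the list median as a black bar and a 2-fold difference as dotted lines. The median is 1.31 for the 6 measured members by gene, 3.20 for retinal pigment epithelium markers, 0.06 for melanocyte and neural crest markers and -2.89 for stroma markers.

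The retinal pigment epithelium is the pigmented layer next to the photoreceptors. Of its 11 measured markers, 7 were higher, 1 was lower and 3 did not pass, and the median was 3.20, where 14.2% of all named genes were called higher. Rpe65, the isomerase of the visual cycle, was at 14.44 to 14.76 on the retina arrays and 7.08 to 8.09 on the cortex arrays, and Rgr (7.29), Rrh (5.86) and the keratin gene Krt18 (5.17) were higher too. Rdh5, a retinol dehydrogenase of these cells, was higher by 4.18, and Slc16a8, their lactate transporter, by 3.20. Best1, a defining channel gene of the same cells, was under the yardstick in both tissues (-0.14, SE 0.34), and Ttr, which choroid plexus also makes, was lower (-1.38, SE 0.058). The summed intensity of the 11 markers after normalization was 869217 to 970935 on the retina arrays and 867757 to 1002560 on the cortex arrays. Without Ttr it was 523750 to 646583 and 50563 to 56410, most of it Rlbp1, which averaged 18.40 in retina and 15.25 in cortex. Rlbp1 and Rgr are also genes of Müller glia, and how far pigment epithelium left on the dissected retina contributed to the Dct and Tyrp1 values was not tested.

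Of 5 measured markers of the neural crest melanocyte, 0 were higher, Kit and Ednrb were lower, and Mc1r, Pax3 and Mcoln3 were under the yardstick in both tissues. Their summed intensity ran from 3780 to 4831 on the retina arrays and from 24193 to 29900 on the cortex arrays. Most of the cortex sum was Kit and Ednrb, which averaged 13.80 and 13.63 there and also act in brain cells. Of other neighbouring tissues, 3 of 5 lens markers, the crystallin genes Cryaa, Cryba1 and Crygs, were higher (summed intensity 80739 to 96969 in retina and 2404 to 3411 in cortex), and Mip and Bfsp1 were under the yardstick in both. All 5 stroma markers were lower (11272 to 13377 against 123724 to 131731), 0 of 5 smooth muscle markers were called, with all 5 under the yardstick in both tissues (2010 to 4053 against 1902 to 3153), and 1 of 5 endothelium markers, Cdh5, was lower (11705 to 13334 against 13909 to 15023). Cdh5 was under the yardstick in both tissues and lost its call in 9 of 16 alternatives, 6 of which left out 1 array (retina array 1 or 3, or cortex array 1, 2, 4 or 5). Of 5 meninges markers 3 were lower (397035 to 440993 against 278022 to 313371, most of it Ptgds). Of 5 choroid plexus markers 4 were higher and Ttr lower (500904 to 519405 against 828291 to 964400, most of it Ttr in both tissues). Kl, of the choroid plexus list, lost its call in 6 of 16 alternatives, among them leaving out retina array 2 or 5 or cortex array 3. Clic6, of the same list, lost it in 3 of 17, among them leaving out cortex array 3, and both lost it without normalization. Of the meninges list, Slc6a13 lost its call in 2 of 17 alternatives, 1 of them leaving out retina array 4, and Slc13a4 in 1 of 16. Whether any of these tissues contributed to the member values was not tested.

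By a rule that took, for each called member probe, the 3 named probes whose values over the 10 arrays differed least after centring each probe on its own mean, the brighter Tyrp1 probe was closest to Rdh5. The root mean square difference was 0.207 log2 units, and Vipr2 (0.209) and Sntg2 (0.222) followed. Dct was closest to Esrp1 (0.521), Vsx1 (0.537) and Crb1 (0.544), a looser likeness over cortex arrays on which Dct spread widely. The second Tyrp1 probe was closest to Tmod1 (0.269), Cyp7a1 (0.302) and Ddo (0.328), and Pmel to Tfap2c (0.317), Dnaic1 (0.342) and Tor4a (0.344). The 10 arrays hold only 2 tissues, so this likeness rests largely on how far a probe's values lay apart between them.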

How the data were processed

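The authors deposited 1 table of linear intensity values for 33012 probes on 10 arrays. Per the labels' protocols, total RNA was extracted with TRIzol and transcribed into digoxigenin-labelled cRNA. How the signal was scanned, corrected for background, normalized or called detected is not given in the sources used here. The authors' intensity values were put on the log2 scale and quantile-normalized, since array medians spanned 0.682, and retina was compared with cortex on all probes with limma 3.58.1 in R 4.3.3 (2-sided, eBayes with a trend over intensity, Benjamini-Hochberg adjustment, no covariate). The fit was tested on simulated data. Names came from the platform annotation, which gave 1 symbol for 14411 probes and several for 247. It left 18354 unnamed here.

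The members, the gene lists and the olfactory receptor yardstick were chosen with earlier results of these data known. The naming rule took all members and the 3 probes most like each called member probe. It also took up to 4 called genes per list with the largest differences, plus called genes against their list's direction. Some genes so picked from the stroma, meninges, choroid plexus and rod lists were counted without being named. Other genes are named with their values or the loss of their call, chosen after those were seen. Asip was matched through its RefSeq synonym. Alternatives were no normalization, median centring, an offset before log2, no intensity trend, a filter on dim probes, a test against 1.5-fold, a replicate block and leaving out each array. Arrays limit precision by their number.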

Additional observations from a re-analysis of the deposited data

Results flagged for a closer look

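The second Tyrp1 probe (892839) read 9.80 on retina array 1, while the other 4 retina arrays read 10.65 to 10.91, a gap of 0.761 of the whole range. The brighter Tyrp1 probe had its highest retina value, 12.62, on array 2, against 12.31 to 12.40 on the other 4, and did not pass the same test. Among list genes, Rab38 was at 8.99 on cortex array 1 against 7.31 to 7.57 on the other cortex arrays (0.845 of the range), and Myrip at 8.63 on cortex array 2 against 9.45 to 9.64 (0.816). Otx2 was at 12.65 on cortex array 3 against 13.09 to 13.17 (0.837), Cdh5 at 9.01 on cortex array 3 against 9.94 to 10.21 (0.775), and Prph2, a rod marker, at 10.96 on cortex array 3 against 8.78 to 8.91 (0.940). Col3a1 was at 7.21 on retina array 1 against 9.37 to 9.88 (0.808). The test, Dixon's at its 95% critical value for 5 arrays, was made on 100 groups of arrays, where chance flags about 1 in 20, and 7 were found.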

How the results depend on the processing

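The calls of Dct and of the brighter Tyrp1 probe held in all 17 alternatives, 1 of which, the filter on dim probes, they passed only through their retina signal, with differences of 4.75 to 5.62 and 3.62 to 4.40. Those of the second Tyrp1 probe (1.91 to 2.65) and Pmel (1.66 to 2.36) held in all 16 alternatives that kept them. The filter on dim probes removed 5 of the 7 member probes (Tyr, Oca2, Mitf, Pmel and the second of Tyrp1) and left 2, both called, which is no further support for those calls. Oca2 was called lower without normalization (-1.14) and not called in its other 15 alternatives; Tyr (0.09 to 0.69) and Mitf (-0.71 to -0.07) were called in none of their 16. With the replicate block, 4 member probes were called and Oca2 had a limma adjusted p of 0.065; same-numbered arrays correlated at -0.02 to 0.03 and 6 of 10 arrays correlated best with their own number, a hint from the data and not the design, and the block changed no member's call. Over all probes 47.6% of calls were higher in retina, against 24.5% without normalization (2474 higher, 7621 lower), where the median of all differences was -0.41, and 53.5% with median centring, where it was 0.13. No detection calls were used. A call on a probe with both means under the yardstick is therefore a difference in signal not shown to exceed background, and its size is uncertain.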
